A study of Mus musculus with 1279 samples.

Results

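Cluster 3 and cluster 5 are 2 of the fibroblast clusters that the authors assigned to single cells of the adult mouse heart. Their members were taken from the cluster number in each cell's label, and they were compared within mouse strains and within sort plates. On the 3 plates that held enough cells of both clusters, the clusters together had 386 of the 1279 cells of the series, 97 of them in cluster 3 and the others in cluster 5. C57BL6, a wild-type strain, gave 90 cells of cluster 3 on 2 plates. Plate heart_203s held 55 cells of cluster 3 and 87 of cluster 5, and plate heart_316s held 35 and 97. PdgfrbGFP, a transgenic strain in which regulatory sequence of Pdgfrb drives green fluorescent protein, gave 7 cells of cluster 3 and all remaining cells of cluster 5, on plate heart_320s. Another strain, Acta2GFP, whose green fluorescent protein is driven by Acta2 sequence, had 14 and 2 cells on plate heart_683s and is described at the end. All mice were males of 10 to 20 weeks. Cells of C57BL6 were sorted by antibody against PDGFRα or PDGFRβ and, per the study's methods, those of PdgfrbGFP and Acta2GFP by the reporter, and cells with the endothelial antigen CD31 were left out. The methods also name elastase in the dissociation for Acta2GFP. The labels name no animal and no treatment was given, so strain, sort and plate cannot be told apart, and whether the C57BL6 plates shared a mouse is not given in the sources used here.

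Cardiac fibroblasts make and turn over the interstitial collagen, the basement membrane parts and the proteoglycans of the heart wall, and they carry Pdgfra, the receptor for platelet-derived growth factor A. They also secrete carriers of insulin-like growth factor, antagonists of WNT and BMP signals, chemokines and complement proteins. Fibroblasts of the adventitia around vessels are known for Pi16, Ly6a and Cd34, and fibroblasts of injured heart for periostin and contractile proteins such as smooth muscle actin.

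The libraries were Smart-seq2, which copies full-length transcripts and has no molecular identifiers, and each cell was 1 library. Depth was alike between the clusters on each plate. Median counts per cell in cluster 3 and cluster 5 were 309440 and 320278 on heart_203s, 170395 and 155530 on heart_316s, and 313186 and 258408 on heart_320s. After each cell was thinned to 50000 counts, the median number of detected genes was 2858 and 2840, 1911 and 1878, and 2029 and 1954. Median mitochondrial shares lay between 1.51 and 2.37% and spike-in shares between 1.73 and 2.68%. The 7 cells of cluster 3 on heart_320s summed to 2161999 counts, against 7085141 to 28006476 in the other 5 sums. In those 7 cells 42.5% of the genes tested had no count at all, so sums of weakly expressed genes from them stand on few counts.

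Both clusters carried the fibroblast markers. Summed over Pdgfra, Col1a1, Col1a2, Dcn and Lum, levels as CPM, which are counts scaled to the same total in every sum, were 12526 in cluster 3 and 13253 in cluster 5 on heart_203s, 15877 and 14667 on heart_316s, and 12802 and 14263 on heart_320s. Dcn, which encodes the proteoglycan decorin, stood at 6170 to 7438 CPM in cluster 3 and 6526 to 7573 CPM in cluster 5. Pdgfra was at 528 and 515 CPM, 303 and 476 CPM, and 487 and 391 CPM. The 6 mesothelial markers summed to at most 0.219 CPM and the 3 Schwann cell markers to at most 0.397 CPM in any of the 6 sums, and the 9 cardiomyocyte markers to at most 98.2 CPM.

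The 4 pericyte markers summed to 244.4 CPM in cluster 3 and 49.1 CPM in cluster 5 on heart_203s, 166.8 and 76.6 CPM on heart_316s, and 205.8 and 84.5 CPM on heart_320s, and 1 of the 4, the channel subunit Abcc9, was higher in cluster 3 on all 3 plates. On heart_320s 95.2% of the cluster 3 counts of Abcc9 lay in 1 of the 7 cells. On heart_316s 1 cell held 54.2% of them in cluster 3 and 1 cell 97.9% in cluster 5, and both medians were 0. The 4 smooth muscle markers summed to 86.1 and 16.8 CPM, 48.3 and 16.4 CPM, and 948 and 72.8 CPM. Acta2 made up most of that sum, and on heart_320s 1 of the 7 cells held 82.1% of its counts. Tagln was at 8.67 and 7.78 CPM, 0.141 and 0.994 CPM, and 201.7 and 19.97 CPM. Of the other smooth muscle markers, Myh11 was at or under 2.21 CPM in every sum and Cnn1 at or under 0.510 CPM except in cluster 3 of heart_320s, where it reached 25.9 CPM. The 5 mural markers, among them Rgs5 and Notch3, summed to 193.2 and 62.9 CPM, 37.1 and 16.8 CPM, and 60.1 and 60.6 CPM. The 7 endothelial markers summed higher in cluster 3 on every plate, at 212.3 and 104.9 CPM, 177.4 and 147.9 CPM, and 169.3 and 84.4 CPM, although 0 of them had the same direction on all 3 plates. The 6 immune markers summed to 25.4 and 19.07 CPM, 116.7 and 131.2 CPM, and 0.925 and 9.79 CPM. Plate heart_316s held 0 cells of the mural clusters 6 to 8, against 37 on heart_203s and a larger number on heart_320s. Whether pericyte, smooth muscle or endothelial RNA has a part in the differences described next was not tested.

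To ask which genes differ, counts were summed per strain and cluster and compared with the edgeR quasi-likelihood test, with strain as a block and clusters 2 and 4 in the same fit. The sums stand for 2 strains, so the fit had 3 residual degrees of freedom. The authors made the clusters from the same counts, and therefore the adjusted p-values only order genes by how far a difference exceeds the spread between strains. They are no independent evidence that the clusters differ. The test covered 16321 genes. An adjusted p under 0.05 was reached by 4 of them (0.0245%), and 651 had an unadjusted p under 0.05. The 4 were Igfbp3, higher in cluster 3, and Smoc2, Fbln2 and Ifi205, lower in cluster 3. Without PdgfrbGFP, with the C57BL6 plates as samples, 0 genes passed and 1127 had an unadjusted p under 0.05. Without heart_203s, 3 genes passed and 1 of them was among the 4. Without heart_316s it was 1 gene, also among the 4.

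Igfbp3, which encodes a secreted carrier of insulin-like growth factors, rose in cluster 3. It stood at 1286 CPM in cluster 3 and 112.2 CPM in cluster 5 on heart_203s, at 1309 and 117.5 CPM on heart_316s, and at 4167 and 172.96 CPM on heart_320s. Every cluster 3 sum lay above every cluster 5 sum, and the fitted log2 fold change was 4.14 ± 0.34 (SE) with an adjusted p of 0.0442. In single cells the medians were 871 and 4.19 CPM, 470 and 0 CPM, and 5052 and 2.77 CPM. A count was present in 51 of 55, 25 of 35 and 7 of 7 cells of cluster 3. Cells of cluster 5 reached 8756 CPM on heart_320s, so the clusters overlapped cell by cell although their sums did not. The gene lies on the minus strand of chromosome 11 (GRCm38, 7206086 to 7213923).

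Smoc2, a matricellular protein of the SPARC family, had the smallest standard error of the 4. Its levels were 378 and 1357 CPM in clusters 3 and 5 on heart_203s, 430 and 1509 CPM on heart_316s, and 492 and 1902 CPM on heart_320s, with a fitted log2 fold change of -1.86 ± 0.08 and an adjusted p of 0.00134. The ratio was nearly the same on each plate, with log2 values of -1.84, -1.81 and -1.95. In cluster 3 Smoc2 still had a count in 55 of 55, 33 of 35 and 7 of 7 cells, at medians of 45.9, 26.7 and 409 CPM against 1182, 1047 and 1825 CPM in cluster 5. Fbln2, which encodes the elastic fibre protein fibulin-2, was at 427 and 1048 CPM, 336 and 1258 CPM, and 390 and 1119 CPM (log2 fold change -1.47 ± 0.13, adjusted p = 0.0442). On heart_320s 1 of the 7 cells held 68.8% of the cluster 3 counts of Fbln2. With the top cell of each sum left out, its log2 ratios on the 3 plates went from -1.29, -1.90 and -1.52 to -1.37, -2.22 and -2.87. Ifi205, of the interferon-inducible HIN-200 family, was at 30.4 and 414 CPM, 3.25 and 491 CPM, and 14.8 and 442 CPM (log2 fold change -4.53 ± 0.41, adjusted p = 0.0442). Its cell medians were 2.97, 0 and 3.19 CPM in cluster 3 against 370 CPM, 162.3 CPM and 271.7 CPM in cluster 5, and 1 of the 7 PdgfrbGFP cells held 84.4% of the counts of cluster 3. The Ifi200 genes are near-identical paralogs in part, and how the authors' counting shared their reads is not given.

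**Figure D1:**
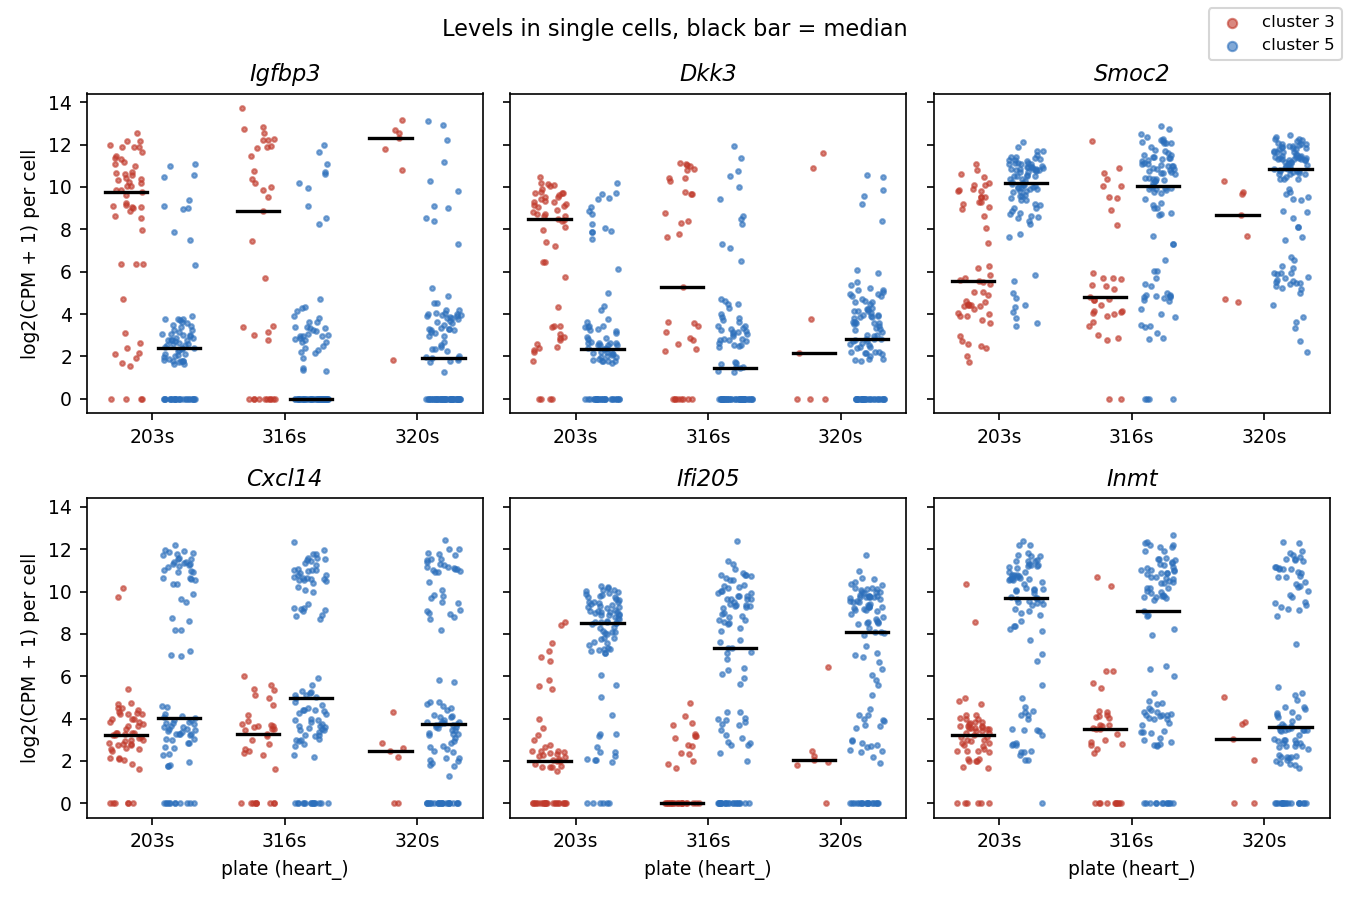
Level of 6 genes in each cell of cluster 3 (red) and cluster 5 (blue) on plates heart_203s, heart_316s and heart_320s, as log2(CPM + 1), 1 point per cell, with the median as a black bar. The median of Igfbp3 is higher in cluster 3 on every plate and the medians of Smoc2, Ifi205, Inmt and Cxcl14 are lower, while Dkk3 has its higher median in cluster 3 only on the C57BL6 plates. Cells of cluster 5 fall into a high and a low band for Cxcl14 and Inmt, and the high band holds few cells of cluster 3.

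The plates were then described without a test, by log2 of the ratio of (CPM + 1) within each plate, a scale that shrinks the ratio of low genes. With no demand on size, 1074 of the tested genes (6.58%) were higher in cluster 3 on all 3 plates and 3257 (20.0%) were lower. The median log2 ratio over all tested genes was 0 on heart_203s, -0.12 on heart_316s and -0.60 on heart_320s, and the median fitted log2 fold change was -0.68. Among 9310 genes with a mean of at least 10 CPM, the median log2 ratios were 0.04, -0.12 and -1.33, so that most genes were lower in the sum of 7 cells, and 906 genes were higher and 1713 lower on all plates. Counts of genes lower on all plates are to be read beside that shift. When the ratio had to be at least 2-fold on each plate, with a count in at least 30% of the cells of the higher cluster on each plate, 20 genes (0.123%) were higher in cluster 3 and 43 (0.263%) were lower. With the cell that had the most counts of a gene left out of each sum, an alternative chosen after seeing the data, it was 11 higher and 96 lower, and 10 and 43 of them were in both sets. The 12 genes in each direction with the largest smallest ratio are described next.

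**Figure D2:**
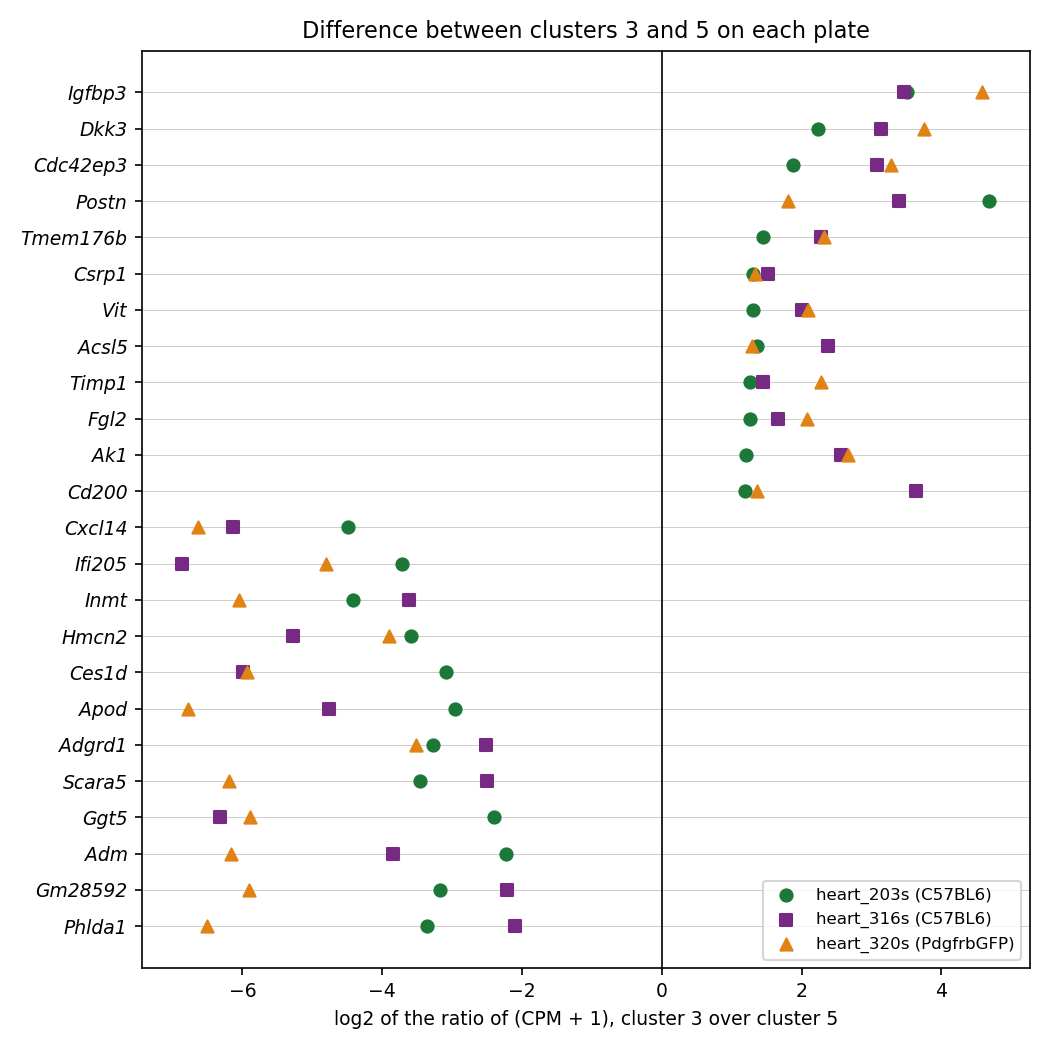
Log2 of the ratio of (CPM + 1) in cluster 3 over cluster 5 for the 12 genes highest and the 12 genes lowest in cluster 3 by rank of their smallest ratio, on heart_203s (green circles), heart_316s (purple squares) and heart_320s (orange triangles). The genes were chosen for the same sign on all 3 plates. The first 12 lie between 1.19 and 4.69, and the other 12 between -6.86 and -2.10.

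After Igfbp3 the genes higher in cluster 3 fell into secreted and matrix proteins, cytoskeletal regulators, and enzymes and membrane proteins. Among the secreted ones, Dkk3, a member of the Dickkopf family, was at 430 and 90.8 CPM on heart_203s, 720 and 80.9 CPM on heart_316s, and 789 and 57.6 CPM on heart_320s. Its fitted log2 fold change was 3.28 ± 0.45, and the adjusted p of 0.292 missed the threshold. In 51 of 55 and 27 of 35 C57BL6 cells of cluster 3 Dkk3 had a count, but in PdgfrbGFP it had one in 4 of 7, with 64.1% of the counts in 1 cell and a median of 3.49 CPM, under the 6.04 CPM of cluster 5.

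Postn, the matricellular protein periostin, was at 404 and 14.7 CPM, 232.5 and 21.2 CPM, and 603 and 172.3 CPM. Here single cells weighed heavily. The top cell held 21.002%, 65.4% and 80.5% of the counts of cluster 3, and with the top cell of each sum left out the level on heart_320s was 137.4 CPM against 128.4 CPM. Timp1, an inhibitor of matrix metalloproteinases, was at 299 and 124.1 CPM, 326 and 118.4 CPM, and 525 and 107.8 CPM. Fgl2, a fibrinogen-like protein, was at 463 and 193.6 CPM, 573 and 180.7 CPM, and 429 and 100.9 CPM. Vit, which encodes the matrix protein vitrin, was at 271.7 and 110 CPM, 326 and 80.7 CPM, and 275.2 and 63.8 CPM. The cells of cluster 3 with a count numbered 42, 21 and 4 for Timp1, 43, 22 and 6 for Fgl2, and 40, 23 and 4 for Vit.

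Csrp1, a LIM domain protein of the actin cytoskeleton, had the most even ratio among the higher genes, with log2 values of 1.31, 1.51 and 1.34 and levels of 500 and 201.5 CPM, 632 and 221.04 CPM, and 681 and 268.8 CPM. Its fitted log2 fold change was 1.40 ± 0.31 (adjusted p = 0.858). Cdc42ep3, an effector of the small GTPase Cdc42, was at 301 and 81.2 CPM, 308 and 35.5 CPM, and 540 and 54.99 CPM. Tmem176b, a membrane protein, was at 545 and 198.8 CPM, 439 and 90.1 CPM, and 813 and 161.5 CPM. The enzymes Acsl5, an acyl-CoA synthetase for long-chain fatty acids, and Ak1, an adenylate kinase, reached 188.2 to 334 CPM and 132.9 to 348 CPM in cluster 3, against 51.7 to 135.5 CPM and 47.4 to 58.1 CPM in cluster 5. Cd200, a membrane glycoprotein that engages a receptor on myeloid cells, was at 77.7 and 33.4 CPM, 166.97 and 12.6 CPM, and 93.4 and 35.6 CPM, but 99.01% of its counts in the 7 PdgfrbGFP cells came from 1 cell, without which it was at 1.08 CPM against 20.5 CPM.

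In 8 of the 12 higher genes more than 50% of the counts in the PdgfrbGFP cells of cluster 3 came from a single cell. Leaving out the top cell of every sum kept the direction on all 3 plates for 11 of the 12, all but Cd200, and kept the 2-fold difference for 8. The share of cell pairs in which the cell of cluster 3 was the higher one ran from 58.8 to 82.7% on heart_203s and from 59.3 to 73.9% on heart_316s, and from 47.9 to 91.02% on heart_320s. On the C57BL6 plates the highest of these shares belonged to Igfbp3.

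The genes lower in cluster 3 differed more. Cxcl14, a chemokine, was at 38.8 and 892 CPM in clusters 3 and 5 on heart_203s, 12.3 and 934 CPM on heart_316s, and 5.55 and 648 CPM on heart_320s. The fitted log2 fold change was -5.62 ± 0.55 with an adjusted p of 0.0625, above the threshold. Its cluster 5 level came from a part of the cells, with medians of only 15.6, 30.4 and 12.4 CPM and top values of 4765, 5102 and 5480 CPM. In cluster 3 the top values were 1135, 63.4 and 19.2 CPM.

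Inmt, which encodes indolethylamine N-methyltransferase, was at 49.5 and 1078 CPM, 84.4 and 1050 CPM, and 8.79 and 648 CPM. On the C57BL6 plates 1 cell of cluster 3 held 69.1% and 60.2% of what little there was. Next came enzymes and transport proteins of lipids, amines and iron, namely the carboxylesterase Ces1d (27.2 and 238.2 CPM, 2.26 and 206.9 CPM, 3.70 and 286.8 CPM), the lipocalin Apod (36.3 and 288.8 CPM, 6.35 and 198.5 CPM, 1.85 and 311 CPM), the gamma-glutamyltransferase Ggt5 (52.96 and 284.7 CPM, 1.83 and 226.6 CPM, 3.24 and 251.4 CPM) and the ferritin receptor Scara5 (39.7 and 446 CPM, 82.6 and 474 CPM, 4.63 and 412 CPM). The remaining genes encode matrix, receptor and signal proteins. Hmcn2, a hemicentin of the extracellular matrix, was at 18.1 and 230 CPM, 2.96 and 153.3 CPM, and 2.31 and 48.7 CPM. Adgrd1, an adhesion G protein-coupled receptor, was at 20.8 and 210 CPM, 33.6 and 197.2 CPM, and 16.7 and 200.97 CPM. Adm, which encodes the vasodilator peptide adrenomedullin, was at 101.2 and 476 CPM, 50.95 and 749 CPM, and 6.01 and 503 CPM.

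Phlda1, a pleckstrin homology-like protein, was at 19.9 and 214.6 CPM, 87.5 and 378 CPM, and 2.31 and 299 CPM. Gm28592 followed it at 10.7 and 103.9 CPM, 44.7 and 211.1 CPM, and 1.85 and 170 CPM. Gm28592 lies on the minus strand of chromosome 10 from 111506575 to 111507662 and Phlda1 on the plus strand from 111506286 to 111508645 (GRCm38), so the annotation of Phlda1 spans it whole. The strand setting of the counting is not given, and reads of the pair cannot be told apart, so they may be 1 signal. All 12 kept their direction on the 3 plates and a 2-fold difference without the top cell of each sum. The share of cell pairs with the cell of cluster 3 higher ran from 11.8 to 39.4%, from 18.8 to 40.8% and from 17.6 to 50.5% on the 3 plates. Hmcn2 gave the 50.5%, with a count in 4 of 7 PdgfrbGFP cells of cluster 3 and 46.67% of those of cluster 5. Thinned to 50000 counts, 0 of the 7 cells had a count of Hmcn2, Apod or Phlda1, against 24.8%, 43.8% and 63.8% of the cells of cluster 5.

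**Figure D3:**
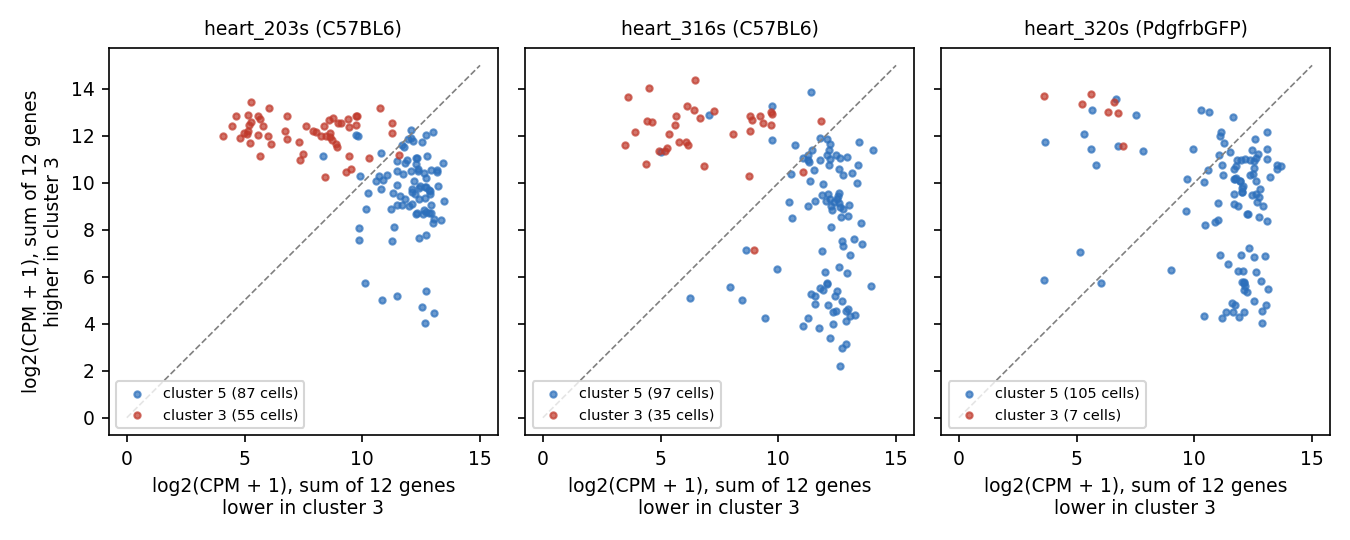
Each point is 1 cell of cluster 3 (red) or cluster 5 (blue), with the summed CPM of the 12 genes lower in cluster 3 on the x axis and of the 12 genes higher in cluster 3 on the y axis, both as log2(CPM + 1), in 1 panel per plate. The dashed line marks equal sums. On the C57BL6 plates 54 of 55 and 33 of 35 cells of cluster 3 lie above the line, against 6 of 87 and 8 of 97 cells of cluster 5, and on heart_320s 7 of 7 against 19.05%.

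The 24 genes together describe how sharply the labelled cells part, with the limit that they were chosen on the same cells. The log2 of the sum of the 12 higher genes minus that of the 12 lower genes had medians of 4.09 in cluster 3 and -2.42 in cluster 5 on heart_203s, 5.93 and -3.37 on heart_316s, and 6.88 and -2.26 on heart_320s. The ranges overlapped on every plate. Within 1 log2 unit of equal sums lay 3, 2 and 0 cells of cluster 3 and 20, 14 and 14 cells of cluster 5. On heart_320s 19.05% of the cells of cluster 5 had a higher sum of the cluster 3 genes, against 6.90% and 8.25% on the C57BL6 plates.

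Clusters 2 and 4, which share the plates, place these differences. Of the 12 higher genes, 8 had their highest level of clusters 2 to 5 in cluster 3 on all 3 plates, with Igfbp3 at 45.5 to 63.1 CPM in cluster 2 and 16.8 to 48.7 CPM in cluster 4. The other 4 were higher in cluster 4 on at least 1 plate, where Dkk3 stood at 479 to 555 CPM, Postn at 434 to 1511 CPM, Cd200 at 156.2 to 171.1 CPM and Ak1 at 140 to 190 CPM. Of the 12 lower genes, 9 were lowest in cluster 3 on all 3 plates and 8 were highest in cluster 5. Cxcl14 was also high in cluster 2 (569 to 862 CPM), and Scara5 stood between 328 and 474 CPM in clusters 2, 4 and 5 on every plate. Smoc2 was at 2296 to 3250 CPM in cluster 2 and 939 to 1245 CPM in cluster 4, above cluster 3 in each. No test was made of these orders.

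**Figure D4:**
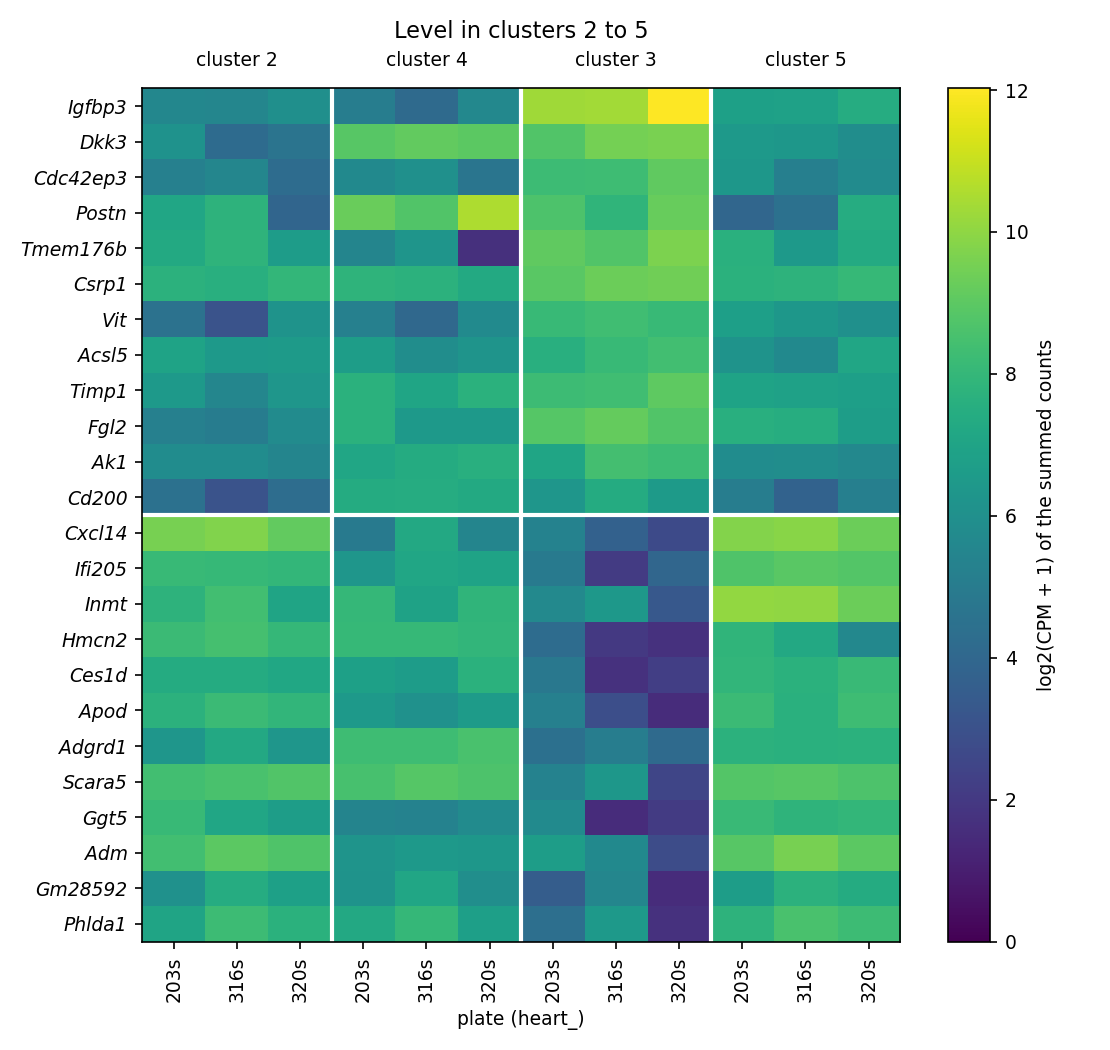
Level of the 24 genes, as log2(CPM + 1) of the summed counts, in clusters 2, 4, 3 and 5 (blocks of 3 columns, 1 per plate). The upper 12 rows are higher in cluster 3 than in cluster 5 and the lower 12 are lower. Dkk3, Postn and Cd200 are also bright in cluster 4, and Cxcl14 in cluster 2. Of the lower 12 rows, 9 are darkest in cluster 3 on all plates, and on heart_203s Cxcl14, Ggt5 and Adm are darker in cluster 4.

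Gene lists were used to describe pathways, by how many tested members had the same direction on all 3 plates, to be read beside the 6.58% and 20.0% over all genes and beside a median fitted log2 fold change of -0.68. Apart from Igfbp3, Smoc2 and Fbln2, no list member passed the test, and the members named below for their levels were chosen after their values were seen. The first group is the basement membrane, the sheet of collagen IV, laminin and nidogen that fibroblasts help to build. Of its 16 genes 9 were lower in cluster 3 on all plates and 1 was higher, and the median fitted log2 fold change was -0.87. Their summed level was 3389 and 5308 CPM, 2239 and 5529 CPM, and 2593 and 4099 CPM. Lamb1, the laminin beta-1 chain, was at 262.6 and 659 CPM, 94.6 and 689 CPM, and 252.1 and 597 CPM. Nid1, which links laminin to collagen IV, was at 489 and 1032 CPM, 399 and 1119 CPM, and 589 and 928 CPM. Lama2 was at 261.4 and 572 CPM, 350 and 721 CPM, and 7.401 and 413 CPM. The exception was Lamb2, at 309 and 240 CPM, 274.8 and 144.8 CPM, and 165.1 and 124.5 CPM.

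Genes of adventitial progenitor-like fibroblasts were lower in the same way, 9 of 13 on all plates with 1 higher, and a median of -1.20. Their sum was 3778 and 5860 CPM, 3902 and 6151 CPM, and 3930 and 7388 CPM. Cd34 was at 917 and 1270 CPM, 859 and 1243 CPM, and 1152 and 1950 CPM. Pi16, a peptidase inhibitor, was at 241.1 and 586 CPM, 360 and 995 CPM, and 21.7 and 844 CPM. The scavenging chemokine receptor Ackr3 was at 203.6 and 749 CPM, 101.9 and 580 CPM, and 429 and 831 CPM, with 85.8% of the PdgfrbGFP counts of cluster 3 in 1 cell. The exception was Dpt, dermatopontin, at 586 and 537 CPM, 670 and 553 CPM, and 772 and 503 CPM.

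The 11 fibrillar collagens summed to 6006 and 6157 CPM, 6749 and 6255 CPM, and 5825 and 5429 CPM, and the 10 small leucine-rich proteoglycans to 15391 and 15654 CPM, 16954 and 16944 CPM, and 15813 and 18595 CPM. Among 22 elastic fibre genes 9 were lower and 1 was higher on all plates, and the higher one was Fbln1 at 3593 and 2708 CPM, 5309 and 3241 CPM, and 3462 and 2967 CPM. Proteases and their inhibitors went both ways, 6 higher and 11 lower of 26 tested. Timp3 was at 1687 and 1119 CPM, 1750 and 1388 CPM, and 2895 and 1299 CPM, and the aggrecan-cleaving protease Adamts5 at 108.4 and 361 CPM, 293 and 745 CPM, and 26.4 and 387 CPM.

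Among insulin-like growth factor genes, 2 of 9 tested were higher on all plates and 2 lower. Besides Igfbp3, the carrier Igfbp4 was at 2428 and 2159 CPM, 3560 and 2760 CPM, and 3801 and 2701 CPM, while Igfbp6 was lower at 382 and 586 CPM, 247.8 and 680 CPM, and 304 and 692 CPM. Igfbp5 was at 320 and 4.50 CPM on heart_203s and 280 and 4.29 CPM on heart_316s, and under 1 CPM in both clusters on heart_320s. Igf1, the growth factor, was at 326 and 849 CPM and 349 and 811 CPM in C57BL6 and at 660.5 and 262.02 CPM in PdgfrbGFP.

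The myofibroblast list had 6 of 19 genes higher and 4 lower on all plates, with a median of 0.69 and a sum of 5065 and 4002 CPM, 5868 and 3876 CPM, and 7825 and 5298 CPM. Of its 8 cytoskeletal members 5 were higher on all plates, among them the myosin light chain Myl9 (304 and 151.6 CPM, 290 and 65.6 CPM, 542 and 126.4 CPM), the tropomyosin Tpm2 (158.1 and 75.6 CPM, 236.1 and 35.9 CPM, 567 and 113.1 CPM) and the calponin Cnn2 (250.9 and 149.2 CPM, 186.7 and 64.8 CPM, 494 and 179.4 CPM). On heart_320s 1 of the 7 cells held 79.5% of the cluster 3 counts of Myl9, and 1 cell held 60.3% of those of Tpm2. The Myl9 medians there were 13.5 and 6.26 CPM. For Myl9 a cell of cluster 3 was the higher one in 65.8%, 66.3% and 58.6% of cell pairs on the 3 plates. Acta2 was at 74.7 and 8.68 CPM, 48.1 and 15.4 CPM, and 720 and 52.4 CPM, with 61.96%, 70.4% and 82.1% of the counts of cluster 3 in 1 cell. On the C57BL6 plates a cell of cluster 3 was the higher one in 49.2% and 49.6% of cell pairs, and after thinning 16.4% and 5.71% of the cells of cluster 3 had a count of Acta2 against 21.8% and 12.4% in cluster 5. On heart_320s a cell of cluster 3 was the higher one in 66.4% of pairs, and the shares after thinning were 42.9% and 34.3%. The fifth was the intermediate filament protein Vim, at 1757 and 1635 CPM, 2343 and 1623 CPM, and 2580 and 2000.3 CPM. Tpm1 was lower on all plates, at 213.9 and 230.7 CPM, 185.9 and 246.8 CPM, and 230.3 and 264.4 CPM. Actg1 went both ways, at 1169 and 1292 CPM, 1656 and 1270 CPM, and 1494 and 1427 CPM, and so did Tagln. Summed smooth muscle markers were higher together with this list, as given above. Their part in it was not tested. Fap and Lox, which are also on the list, were lower in cluster 3 on all plates.

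Serum response factor, which controls contractile genes, is known to bind the CArG box. RefSeq promoters (GRCm38.p6), taken as the 250 bases before a transcript start, were searched for it on both strands. Only the exact form CCWWWWWWGG, where W is A or T, was counted, and forms that differ in any base were not. Of the 8 cytoskeletal members of the list 7 were in the table and 3 held a CArG box, Myl9, Cnn2 and Actg1. Acta2, Tpm2 and Vim, which were higher on all plates, held 0 exact matches, as did Tpm1, which was lower, and Actg1 went both ways. A promoter with 0 exact matches may still hold a form that differs in a base. Of the 24 genes above 16 were in the table and 0 held one. Over all 32851 promoters the share was 1.47%. The windows of Myl9 (chr2:156775214-156775463, plus strand) and Cnn2 (chr10:79988350-79988599, plus strand) are shown 5′ to 3′ with the box in capitals. The match describes the letters and not a bound site.
Myl9: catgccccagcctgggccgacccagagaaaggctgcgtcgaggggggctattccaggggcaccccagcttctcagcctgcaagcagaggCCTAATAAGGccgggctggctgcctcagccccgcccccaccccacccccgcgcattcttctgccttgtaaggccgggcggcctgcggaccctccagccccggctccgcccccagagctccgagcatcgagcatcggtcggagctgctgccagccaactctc
Cnn2: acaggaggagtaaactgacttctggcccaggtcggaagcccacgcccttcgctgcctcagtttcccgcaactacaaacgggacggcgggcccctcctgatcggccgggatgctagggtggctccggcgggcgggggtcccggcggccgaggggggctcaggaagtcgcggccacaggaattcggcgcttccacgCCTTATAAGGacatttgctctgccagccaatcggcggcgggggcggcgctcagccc

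WNT antagonists were higher as a sum, at 1270 and 858 CPM, 2055 and 1236 CPM, and 1851 and 925 CPM, with 3 of 10 tested genes higher on all plates and 0 lower. Most of that difference was Dkk3, and without it the other 14 genes summed to 839.6 and 767 CPM, 1335 and 1155 CPM, and 1062 and 867 CPM. The 3 were Dkk3, Wif1 and Nkd1. The 5 markers of the valve cluster 1, Wif1 among them, summed to 289.2 and 190.9 CPM, 191.1 and 195.9 CPM, and 15.3 and 217.9 CPM. Wif1 was thus at most 15.3 CPM in cluster 3 of heart_320s. Nkd1, an intracellular antagonist, was at 28.1 and 1.75 CPM, 83.6 and 0.136 CPM, and 159.1 and 0.146 CPM, but it had a count in only 6 of 55, 3 of 35 and 1 of 7 cells of cluster 3. Of the genes of TGF-beta and BMP signalling 6 of 26 tested were higher and 6 lower on all plates. Id3, a target of BMP signals, was at 1701 and 1087 CPM, 1596 and 873 CPM, and 1468 and 975 CPM. Id1 was at 253.7 and 51.8 CPM, 333 and 64.2 CPM, and 80.5 and 64.3 CPM. The ligand Bmp4 was lower in cluster 3, at 79.6 and 207.7 CPM, 15.7 and 179.02 CPM, and 111.5 and 255.99 CPM, and so was the BMP-binding protein Bmper at 63.96 and 191.5 CPM, 46.01 and 251.8 CPM, and 123.5 and 150 CPM.

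Of the transcription factors of heart mesenchyme 5 of 22 tested were higher and 3 lower on all plates. Tbx20, a T-box factor of heart development, was at 519 and 62.7 CPM, 413 and 26.6 CPM, and 204.4 and 95.9 CPM, and a cell of cluster 3 was higher in 82.2%, 72.2% and 68.4% of cell pairs. In PdgfrbGFP 81.2% of its cluster 3 counts lay in 1 cell. Tcf21, a factor of cardiac fibroblasts, was at 706 and 437 CPM, 598 and 396 CPM, and 554 and 471 CPM, and Gata4 at 286.95 and 124.3 CPM, 190 and 103.2 CPM, and 67.1 and 64.4 CPM. Tbx5 was higher on all plates but present in only 6 of 55, 3 of 35 and 1 of 7 cells. Osr1 went the other way, at 111.1 and 432 CPM, 157.2 and 602 CPM, and 3.24 and 256.5 CPM.

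Of the complement genes 5 of 14 tested were lower and 1 was higher on all plates. C3, the central component, was at 418 and 1902 CPM, 599 and 1629 CPM, and 415 and 973 CPM. Chemokines and cytokines summed lower in cluster 3 in C57BL6, at 2115 and 3595 CPM and 2077 and 2879 CPM, and higher in PdgfrbGFP, at 4193 and 3269 CPM. Ccl7 was lower on every plate at 0.850 and 69.6 CPM, 2.54 and 94.8 CPM, and 1.85 and 128.5 CPM. Il6 was at 51.2 and 249.2 CPM, 35.4 and 78.98 CPM, and 730 and 201.1 CPM, with 91.01% of the PdgfrbGFP value in 1 cell.

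Stress and housekeeping genes are given because dissociation can move them. Of the immediate early genes 10 of 26 were lower and 1 higher on all plates, but their sum was 27234 and 32700 CPM, 27715 and 23493 CPM, and 25657 and 28654 CPM, in no fixed order. Of 14 heat shock genes 8 were lower and 0 higher, with sums of 3791 and 4642 CPM, 4106 and 5152 CPM, and 4829 and 8023 CPM. Of 50 ribosomal protein genes 26 were lower and 0 higher, and their sums were 17406 and 20674 CPM, 18687 and 20518 CPM, and 21783 and 22505 CPM. The part of dissociation in the differences was not tested.

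**Figure D5:**
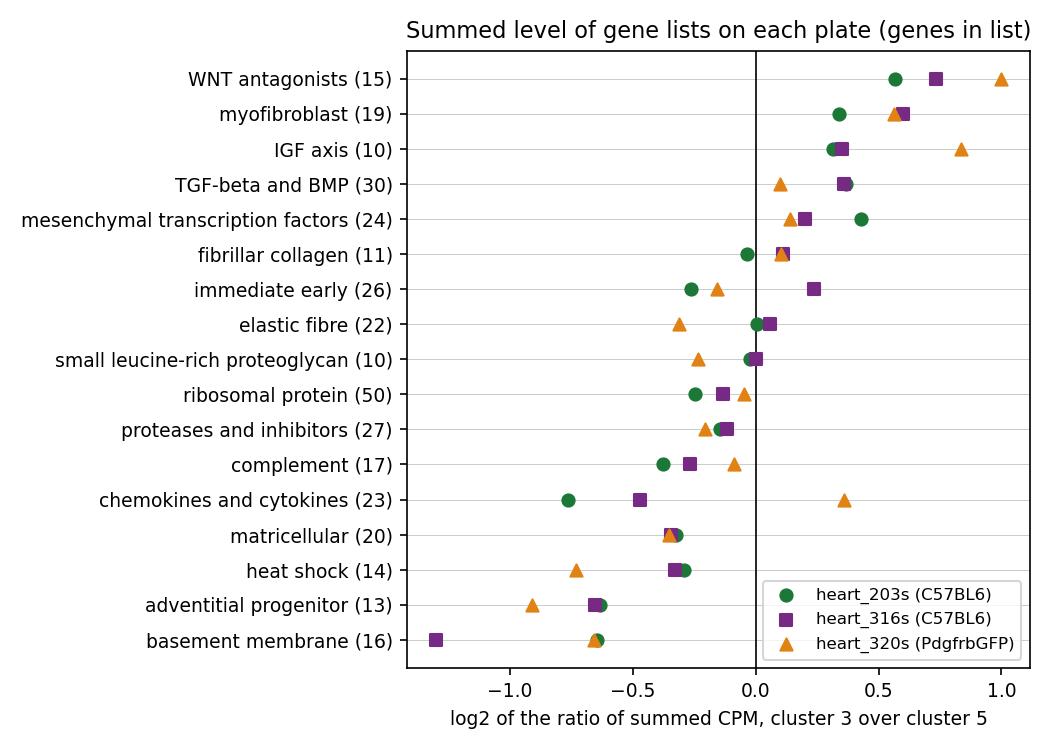
Log2 of the ratio of the summed CPM of a gene list in cluster 3 over cluster 5, on heart_203s (green circles), heart_316s (purple squares) and heart_320s (orange triangles), for 17 of 42 lists, cell type markers included in the 42, with the number of genes in brackets. The lists of WNT antagonists, myofibroblast, IGF axis, TGF-beta and BMP, and mesenchymal transcription factors lie above 0 on all plates, and those of basement membrane, adventitial progenitor, heat shock, matricellular, complement, proteases and inhibitors, and ribosomal protein lie below 0. Chemokines and cytokines change sides between the strains. No rule was set for which lists were drawn. Some lists left out also keep 1 side on all plates, such as growth factors above 0 and iron and copper genes below 0.

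Since PdgfrbGFP had 7 cells of cluster 3, the C57BL6 plates were also described alone. There 57 genes (0.349%) were at least 2-fold higher in cluster 3 on both plates with the same minimum of cells, and 82 (0.502%) were at least 2-fold lower. In PdgfrbGFP 34 of the 57 were also higher and 63 of the 82 also lower, where 26.1% of all tested genes were higher and 66.7% lower, and 34.7% and 65.05% of those with a mean of at least 10 CPM. A test of the difference between strains, an interaction term fitted on sums per plate, had an adjusted p under 0.05 for 1563 of 15353 genes (10.2%), and for 14 of the 57 and 22 of the 82. It measures spread between plates, holds 1 plate of PdgfrbGFP and assumes that a sum of 7 cells varies like the others. The 57 and 82 genes were chosen by their differences on the C57BL6 plates, which also enter the interaction. That choice alone can raise their shares, so they cannot be read against the share over all genes. Fstl3, an activin-binding protein, was at 188.01 and 61.6 CPM and 261.96 and 29.4 CPM in C57BL6 and at 1.85 and 31.9 CPM in PdgfrbGFP (interaction -6.45 on the log2 scale, adjusted p = 0.0215). Meox1, a homeobox factor, was at 283.2 and 77.6 CPM and 402 and 115.6 CPM, and at 160 and 213.7 CPM (interaction -2.24, adjusted p = 0.0296). For Igfbp5 the interaction of -6.65 had an adjusted p of 0.314. Of the 26 genes named by rank or by the main test, 4 had an adjusted p of the interaction under 0.05, all among the lower genes and with the overlapping Phlda1 and Gm28592 among them, and for Igfbp3, Smoc2 and Fbln2 it was 1.11, -0.11 and 0.08 with adjusted p-values of 0.204, 0.887 and 0.964.

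The Acta2GFP plate had both clusters, with 14 cells of cluster 3 and 2 of cluster 5 on plate heart_683s. All 12 higher genes were higher there too, with Igfbp3 at 2125 CPM against 16.4 CPM, and 8 of the 12 lower genes were lower. Over all tested genes 61.8% were higher and 23.3% lower on this plate. The 2 cells of cluster 5 held few or no counts of many genes, with Cdc42ep3 and Ak1 at 0 CPM, Fgl2 at 1.64 CPM, and the exceptions Ces1d, Apod, Gm28592 and Phlda1 at 0 to 4.93 CPM. Adding this strain to the fit gave 11 genes with an adjusted p under 0.05, and the 4 genes of the 2-strain fit were among them.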

How the data were processed

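Single cells of dissociated adult mouse heart were sorted into 384-well plates and sequenced by Smart-seq2. Per the labels and the study's methods, the authors used bcl2fastq, Trim Galore, TopHat2 with Bowtie, the GRCm38 (mm10) genome and featureCounts of Subread to make raw read counts per gene and cell, which are the deposited values used here. They removed cells of low depth, potential doublets, cells without Pdgfra and Pdgfrb and cells with endothelial or immune signal, and assigned the clusters. No further doublet caller was run. Cluster 3 and cluster 5 held 97 and 289 cells on the 3 plates, 90 and 184 in C57BL6 and 7 and 105 in PdgfrbGFP. The annotation release and the strand setting are not given in the sources used here.

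Counts of 46517 genes were summed per plate or strain and cluster, without the 92 spike-ins, which held 1.82% of the counts. Coordinates come from an annotation that matched 46005 genes. The main test was the edgeR 4.0.16 (R 4.3.3) quasi-likelihood F test on 8 sums, with TMM scaling, filterByExpr at a minimum count of 10, strain as a block and Benjamini-Hochberg adjustment at 0.05. The SE given with a fitted log2 fold change is its absolute value divided by the square root of F, so it is derived from the test. The labels name no animal, so p-values measure the spread between these sums, which may be technical. Strains carry both clusters from the same plates, which is where the pairing in the block comes from. Alternatives used limma 3.58.1, DESeq2 1.42.0, other filters, samples and scalings. The fit was tested on simulated counts.

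Named genes were the 12 in each direction with the largest smallest log2 ratio of (CPM + 1) over the 3 plates, where on each plate at least 30% of cells in the higher cluster had reads of the gene, plus genes past the test and list members. Where no list member passed, the rule allowed up to 2 of highest mean CPM, and other list members given in the report lie outside this rule and were chosen after their values were seen. Members and lists were chosen with earlier results of these data known. Reads carry no molecular identifiers, and counts per cell are not independent molecules.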

Additional observations from a re-analysis of the deposited data

Results flagged for a closer look

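Of the 26 genes named by rank or by the main test, 4 had an adjusted p under 0.05 for the interaction of cluster and strain, in edgeR with Benjamini-Hochberg adjustment over 15353 genes. PdgfrbGFP was 1 plate with 7 cells of cluster 3, so its sum is assumed to vary like the C57BL6 sums, and strain, sort and plate cannot be told apart. All were lower in cluster 3 on the 3 plates of the fit, though Phlda1 and Gm28592 were higher on the Acta2GFP plate, and the difference was larger in PdgfrbGFP. For Scara5 the log2 difference in PdgfrbGFP minus that in C57BL6 was -3.48 (adjusted p = 0.0218), and it was 0.0130 with cells thinned and 0.0372 with DESeq2 size factors. For Adm it was -3.38 (adjusted p = 0.0422, then 0.0200 and 0.0629). Phlda1 gave -4.29 (adjusted p = 0.0321, then 0.0417 and 0.0494), and the overlapping Gm28592, which may be the same signal, gave -3.78 (adjusted p = 0.0403, then 0.124 and 0.0629). In the 7 PdgfrbGFP cells of cluster 3 these genes stood at 1.85 to 6.01 CPM, and the median log2 ratio of genes with a mean of at least 10 CPM was -1.33 on that plate. Over all genes tested the interaction passed for 10.2%.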

How the results depend on the processing

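The share of genes with an adjusted p under 0.05 was 0.0245% (4 genes) and depended on the fit. It was 1.91% of 13789 genes with DESeq2, 95 of them higher, 0.380% (55 genes) with only clusters 3 and 5, 0.124% (19 genes) with plates in place of strains, 0.0717% (11 genes) with Acta2GFP added, and 0.00613% (1 gene) both with limma on log2(CPM + 1) and on the mean CPM of cells. Without the replicate block, which pairs the clusters by strain, it was 0 in edgeR, with 605 genes at an unadjusted p under 0.05. Leaving out 1 plate gave 0 to 0.0199%, which is 0 to 3 genes, with 0.00647% without heart_316s. Other size factors, no filter, thinning and deep cells gave 3 to 5 genes. Across 14 alternatives Igfbp3 passed in 8, Smoc2 in 11, Ifi205 in 7 and Fbln2 in 5, with highest adjusted p-values of 0.396, 0.429, 0.376 and 0.515. The 26 named genes kept their direction in all 364 alternative values of the fit, which the choice of 24 of them for 1 direction on all plates largely fixes, and Cd200 turned to a log2 ratio of -3.37 on heart_320s without its top cell. The 63 genes at least 2-fold different on all plates became 0.656% of the genes, 11 higher and 96 lower, when the cell with the most counts of a gene was left out of each sum, an alternative chosen after seeing the data. Of these 10 and 43 were shared with the main set. The interaction passed for 7.94% (1006 genes) with cells thinned. The cause of these changes was not tested. The PdgfrbGFP sum of cluster 3 came from 7 cells, with a median depth of 313186 against 258408 in cluster 5. In these cells 42.5% of the tested genes had no count, and the part of cell number in that was not tested.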
